A study of Mus musculus with 8 samples.

Results

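A set of 10 genes of the actin cytoskeleton was followed in newborn mouse kidney: Acta1, Actb, Actg1, Actn1, Actn4, Flna, Tpm1, Tpm4, Vcl and Cnn2. They were taken by symbol as genes of actin filaments reported to respond to the transcription factors YAP and SRF, and all 10 were found among the 35976 genes listed. RNA-seq of poly(A)-selected RNA gave 8 libraries from kidneys at postnatal day 3. The mutant genotype, called YAP here, is labelled Slc12a3 Cre/+ with C1 YAP/+, and the control, called Ctrl, is Slc12a3 Cre/+ with C1 +/+. Each genotype has 2 male and 2 female libraries. Both genotypes carry the Cre allele, and they differ in the YAP allele at C1, a locus that the labels do not explain. Slc12a3 is the sodium-chloride cotransporter gene active in distal convoluted tubule cells, which are a minority in the organ, whereas RNA came from kidney as a whole. Whether each library is another animal is not stated, so the p-values below reflect library-to-library spread, which may be technical.

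YAP is the effector of the Hippo pathway: when it enters the nucleus it binds TEAD factors, which recognise the sequence GGAATG. SRF binds the CArG box, and its coactivators of the MRTF family are held in the cytoplasm by actin monomers, so that filament assembly frees them to switch on genes for actin and actin-binding proteins. The 10 genes cover the parts of a contractile filament. Acta1, Actb and Actg1 encode actin itself, in its skeletal muscle form and in both cytoplasmic forms. Tpm1 and Tpm4 encode tropomyosins, which lie along the filament and govern access of myosin. Actn1 and Actn4 encode the non-muscle alpha-actinins, which bundle filaments, and ACTN4 mutations cause a glomerular disease in humans. Flna encodes filamin A, a crosslinker of filament networks, Vcl encodes vinculin, which ties filaments to focal adhesions and cell junctions, and Cnn2 encodes calponin 2, which stabilises stress fibres.

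RefSeq promoters of build GRCm38.p6, from 250 bases before to 50 bases after the annotated start, were matched for 9 of the 10 genes, all but Actb. Each of the 9 genes had 1 window, so other starts of the same gene were not read. The windows of Flna and Tpm1 lie inside the gene spans given below. A CArG box, read as CC, then 6 letters each A or T, then GG, was present in 4 of the 9 windows, those of Acta1, Actg1, Vcl and Cnn2, against 1.63% of all 32851 promoters and 1.36% of the promoters of tested genes. The letters GGAATG or CATTCC are the TEAD recognition sequence on either strand. They were present in 5 of the 9 windows, those of Acta1, Actn4, Flna, Tpm1 and Vcl. The share was 14.7% among all promoters and 12.97% among the promoters of tested genes. No CArG box overlapped a TEAD sequence. The windows of the 4 genes with a CArG box are shown because they carry the match to SRF, and that of Tpm1 because Tpm1 was the abundant gene with the largest change. They lie at chr8:123894726-123895025 for Acta1, chr11:120348446-120348745 for Actg1, chr14:20929148-20929447 for Vcl, chr10:79988350-79988649 for Cnn2 and chr9:67049164-67049463 for Tpm1. Vcl and Cnn2 are on the plus strand and the others on the minus strand. Each is written in the gene's own direction, with CArG boxes and TEAD sequences in capitals.
Acta1: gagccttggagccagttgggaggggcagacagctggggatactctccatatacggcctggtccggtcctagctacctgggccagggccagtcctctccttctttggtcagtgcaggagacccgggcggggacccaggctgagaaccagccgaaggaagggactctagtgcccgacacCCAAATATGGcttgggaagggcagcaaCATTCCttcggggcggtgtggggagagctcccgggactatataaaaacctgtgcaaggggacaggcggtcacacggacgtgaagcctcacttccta
Actg1: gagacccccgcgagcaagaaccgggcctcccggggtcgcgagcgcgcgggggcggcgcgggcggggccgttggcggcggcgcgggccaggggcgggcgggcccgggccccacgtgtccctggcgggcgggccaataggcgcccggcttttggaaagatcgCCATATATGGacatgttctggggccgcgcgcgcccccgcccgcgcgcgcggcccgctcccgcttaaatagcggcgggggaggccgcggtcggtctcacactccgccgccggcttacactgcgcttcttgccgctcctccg
Vcl: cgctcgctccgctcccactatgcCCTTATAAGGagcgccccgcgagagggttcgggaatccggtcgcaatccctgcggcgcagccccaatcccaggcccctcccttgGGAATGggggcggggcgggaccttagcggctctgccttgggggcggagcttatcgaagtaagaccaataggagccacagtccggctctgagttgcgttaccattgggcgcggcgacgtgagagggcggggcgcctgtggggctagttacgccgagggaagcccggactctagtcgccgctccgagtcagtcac
Cnn2: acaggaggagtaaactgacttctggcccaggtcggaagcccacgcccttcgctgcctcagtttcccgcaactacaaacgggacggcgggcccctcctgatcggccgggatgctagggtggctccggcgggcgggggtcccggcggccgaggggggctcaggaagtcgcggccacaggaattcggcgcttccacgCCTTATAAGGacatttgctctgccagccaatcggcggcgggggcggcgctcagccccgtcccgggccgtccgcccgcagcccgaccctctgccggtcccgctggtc
Tpm1: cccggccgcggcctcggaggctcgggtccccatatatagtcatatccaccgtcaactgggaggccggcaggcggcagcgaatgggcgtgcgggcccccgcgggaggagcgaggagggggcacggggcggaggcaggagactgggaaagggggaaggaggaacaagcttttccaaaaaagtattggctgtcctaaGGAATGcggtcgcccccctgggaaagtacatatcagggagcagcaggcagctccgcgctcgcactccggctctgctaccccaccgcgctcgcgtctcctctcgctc
The CArG box began at −73 in Acta1, −90 in Actg1 and −56 in Cnn2, but at −227 in Vcl, counted from the annotated start. Vcl and Cnn2 held the same 10 letters, CCTTATAAGG, whereas Acta1 held CCAAATATGG and Actg1 CCATATATGG. The TEAD sequence lay at −46 in Acta1, downstream of its CArG box, at −143 in Vcl and at −56 in Tpm1. When 1 letter was allowed to differ from the CArG box, Tpm1 held such matches at −221 and −80 and Flna at −44. A match was then held by 6 of the 9 windows, against 21.1% of all promoters and 17.6% of those of tested genes. Because the genes were taken as reported to respond to YAP and SRF, these shares are not independent of that choice. A match of letters describes the window and is not a measured binding site.

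Levels are in scaled RPKM, the deposited RPKM (reads for each kilobase of the gene and each 1000000 reads in the library) after division by a scaling factor, and differences are YAP minus Ctrl on log2(scaled RPKM + 0.1). All 10 genes were higher in YAP kidneys on average, and 8 of them rose past an adjusted p of 0.05 in limma with Benjamini-Hochberg adjustment over 18156 tested genes. Acta1, Actn1, Actn4, Actg1, Tpm1, Tpm4, Vcl and Cnn2 rose, no gene fell, and Actb and Flna did not pass. Among all tested genes 13.2% rose and 13.0% fell, and 26.1% changed in either direction. The median difference of the 10 genes was 0.61, with a range of 0.35 to 3.23, against a median of 0.01 over all tested genes. In the 8 that rose every YAP library was above every Ctrl library, a separation also met by 15.7% of the tested genes. Tpm1 and Acta1 changed by more than 2-fold, 3.02-fold and 9.35-fold, and Actn1 by 1.94-fold. In whole-organ RNA, more cells of a type and more RNA per cell cannot be told apart, and markers of other cell types, macrophages above all, also differed between the genotypes.

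**Figure D1:**
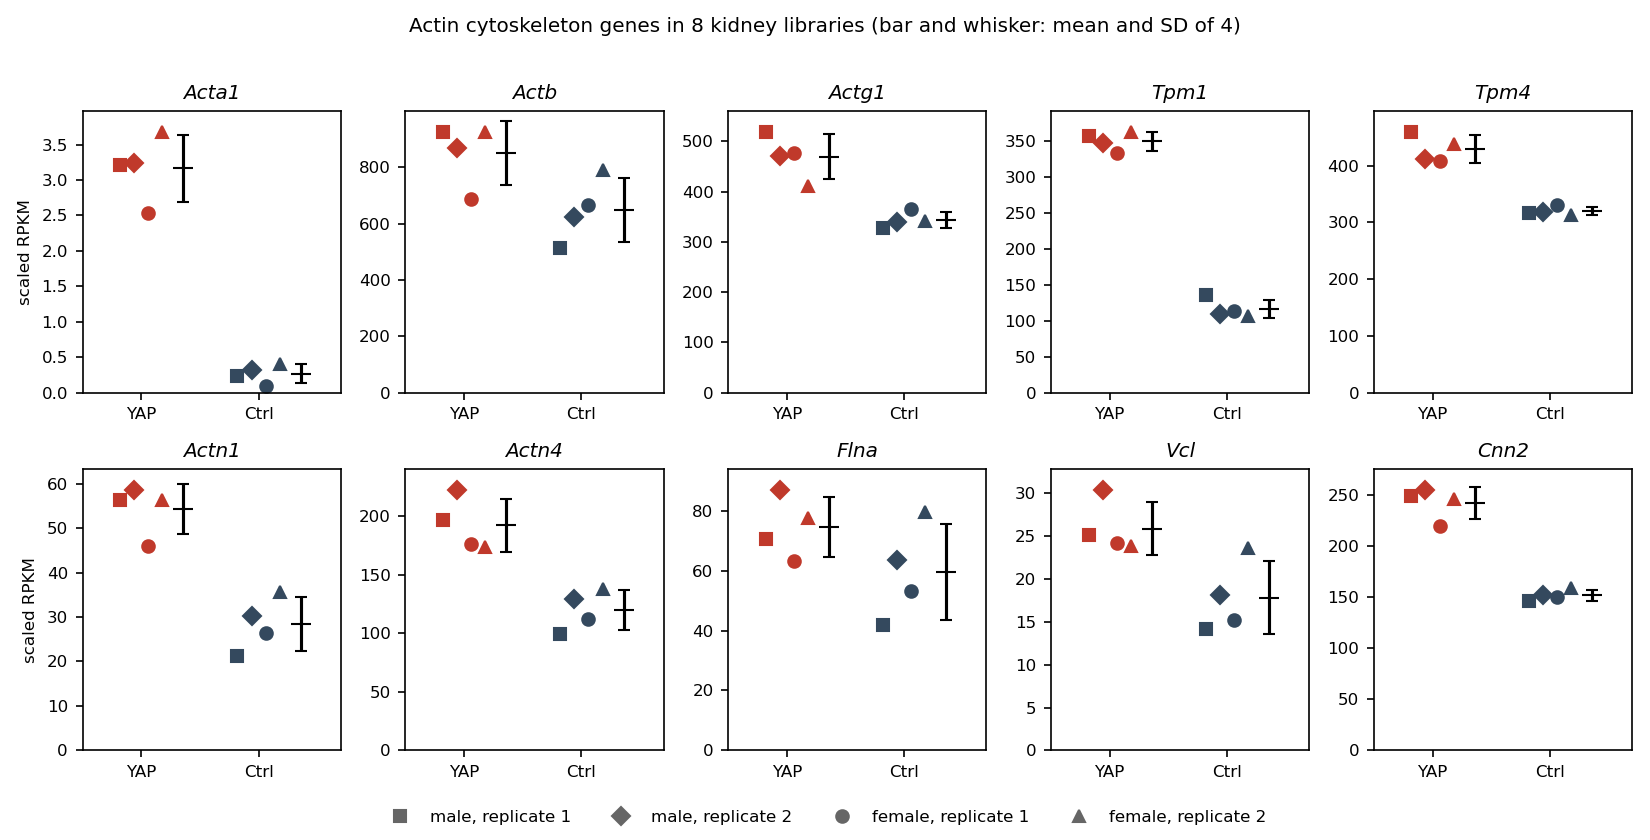
Level of each of the 10 genes in scaled RPKM (vertical axes, from 0, a scale per gene) in the 4 YAP libraries, left, and the 4 Ctrl libraries, right, with symbols for sex and replicate number and a bar with whiskers for the mean and SD of 4. The groups are apart in 8 genes and overlap in Actb and Flna.

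In units of 1000000 reads, replicate 1 libraries rest on totals of 78.2 to 87.1 and replicate 2 libraries on 22.8 to 25.2, so replicate number coincides with a depth batch that holds 1 library of every group. For the 10 genes, differences within each batch are therefore given beside the pooled ones. Reads of the gene Yap1 did not separate the genotypes, at 35.5 ± 0.771 scaled RPKM in YAP kidneys and 35.5 ± 3.98 in Ctrl kidneys (SD, n = 4 each), and the labels do not say whether the allele carries a mouse sequence. Slc12a3 itself, the gene whose locus carries Cre, averaged 1.41 ± 0.418 scaled RPKM in YAP kidneys and 14.1 ± 1.96 in Ctrl kidneys (SD, n = 4 each).

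Acta1, the skeletal muscle alpha-actin on chr8:123891758-123894775, was the least abundant of the 10 and had the largest difference. In YAP kidneys it measured 3.21 and 3.23 scaled RPKM in males and 2.54 and 3.68 in females, against 0.238 and 0.321 in Ctrl males and 0.0986 and 0.409 in Ctrl females. Every YAP library was several times above every Ctrl library. The reads behind these values were 436, 120, 322 and 147 in the YAP libraries and 31, 12, 12 and 15 in the Ctrl libraries, in the same order. The fold change was 9.35, with a 95% interval of 6.05 to 14.5, and the limma adjusted p was 6.84e-05. Within the replicate 1 libraries the log2 difference was 3.51 and within the replicate 2 libraries 2.94. Because Ctrl levels lay close to the pseudocount, the size depended on it: the log2 difference of 3.23 became 3.67 with a pseudocount of 0.01 and 1.72 with a pseudocount of 1, while voom on reads gave 3.85.

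The cytoplasmic actins were among the most abundant transcripts, Actb ranking 100 and Actg1 188 of the 18156 tested genes by mean level. Actg1, gamma-actin, on chr11:120345687-120348495, measured 518, 471, 478 and 410.4 scaled RPKM in YAP males 1 and 2 and YAP females 1 and 2, against 328, 339, 364 and 342 in the Ctrl libraries. The lowest YAP library was above the highest Ctrl library. Actg1 rose 1.36-fold (95% interval 1.17 to 1.58, limma adjusted p = 0.00884), with log2 differences of 0.53 and 0.37 within the replicate 1 and replicate 2 libraries, neither of which passed alone. Actb, beta-actin, on chr5:142903115-142907976, measured 925, 867, 687 and 925 scaled RPKM in the YAP libraries, against 515, 622, 667 and 791 in the Ctrl libraries. The female Ctrl replicate 2 library lay above the female YAP replicate 1 library, so the groups overlapped. The fold was 1.32 with a 95% interval of 1.03 to 1.68, and the limma adjusted p of 0.0951 missed the threshold. Without the female YAP replicate 1 library the log2 difference of 0.40 became 0.54 (limma adjusted p = 0.0253), and without the female Ctrl replicate 2 library it became 0.50 (limma adjusted p = 0.0447). Those were the overlapping libraries. Leaving out any other library gave 0.29 to 0.40, with limma adjusted p of 0.17 to 0.242, and Actb did not pass. Log2 differences of 0.44 and 0.35 within the replicate 1 and replicate 2 libraries did not pass either. Actin proteins are close to identical, their coding sequences are alike and cytoplasmic actins have many processed pseudogenes. The sources used here do not state how reads that match several of them were counted, so the split between actin genes is uncertain.

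The 3 actin genes outside the set did not pass the test. Acta2, smooth muscle alpha-actin, measured 274, 226, 175 and 239 scaled RPKM in the YAP libraries and 167, 179.7, 171 and 197 in the Ctrl libraries (log2 difference 0.34, limma adjusted p = 0.103). Acta2 passed without the female YAP replicate 1 library (limma adjusted p = 0.0222), whereas leaving out any other library gave limma adjusted p of 0.0628 to 0.265. Actg2, enteric gamma-actin, averaged 5.08 ± 1.38 in YAP and 3.12 ± 1.51 in Ctrl kidneys (SD, n = 4 each), with a limma adjusted p of 0.142. It passed within the replicate 1 libraries, at 0.00772, and within the replicate 2 libraries, at 0.0345. Actc1, cardiac actin, rested on 66 reads in all YAP and 49 in all Ctrl libraries, at 0.233 ± 0.0822 in YAP and 0.166 ± 0.0383 in Ctrl kidneys (SD, n = 4 each). The summed level of the 6 actin genes was 1727, 1574, 1345 and 1585 scaled RPKM in the YAP libraries, against 1013, 1144, 1205 and 1336 in the Ctrl libraries, a ratio of means of 1.33. Every YAP library was above every Ctrl library in this sum.

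Of that sum, Actb made up 54.5 ± 3.06% in YAP and 54.95 ± 3.46% in Ctrl kidneys, and Actg1 30.3 ± 3.95% in YAP and 29.5 ± 2.81% in Ctrl kidneys (SD, n = 4 each). Acta2 made up 14.6 ± 1.23% in YAP and 15.3 ± 1.02% in Ctrl kidneys. Acta1 made up 0.203 ± 0.0212% in YAP and 0.0226 ± 0.0101% in Ctrl kidneys. The Acta1 share was higher in every YAP library than in any Ctrl library, which gives 0.0286, the smallest p of a two-sided exact permutation test over the 70 splits, and 0.171 after adjustment over the 6 shares. For the other 5 shares the exact permutation p was 0.343 to 0.8.

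Tpm1, tropomyosin 1, on chr9:67022590-67049672, had the largest difference among the abundant genes of the set. It measured 357 and 347 scaled RPKM in YAP males and 333 and 362 in YAP females, against 135 and 109.5 in Ctrl males and 113 and 107 in Ctrl females. The lowest YAP library was more than 2-fold above the highest Ctrl library, and the YAP libraries lay close together at 349.7 ± 13.1 (SD, n = 4). The fold change was 3.02, with a 95% interval of 2.62 to 3.48 and a limma adjusted p of 8.4e-06. Log2 differences of 1.48 and 1.71 within the replicate 1 and replicate 2 libraries both passed. Tpm4, on chr8:72135288-72153142, was the most abundant tropomyosin gene, at 459, 411, 408 and 439 scaled RPKM in the YAP libraries, against 317, 318, 329.9 and 314 in the Ctrl libraries. The lowest YAP library was above the highest Ctrl library. Tpm4 rose 1.34-fold (95% interval 1.18 to 1.52, limma adjusted p = 0.00459), at a log2 difference of 0.42 against 1.59 for Tpm1. Its log2 differences of 0.42 and 0.43 within the replicate 1 and replicate 2 libraries did not pass.

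The rest of the tropomyosin family was lower in level. Tpm3 measured 33.2, 38.3, 28.7 and 32.3 scaled RPKM in the YAP libraries, against 22.7, 24.0, 29.4 and 24.3 in the Ctrl libraries, with the female replicate 1 libraries at nearly the same level. Its 1.32-fold rise (limma adjusted p = 0.0327) was lost with no filter on low values, within the replicate 1 libraries, and without either male YAP library, either male Ctrl library, or the replicate 2 library of female YAP or female Ctrl. Tpm2, a muscle tropomyosin, averaged 32.8 in YAP and 30.2 in Ctrl kidneys and did not pass (limma adjusted p = 0.551). The deposited values are per gene, so the muscle and non-muscle isoforms that Tpm1 and the other tropomyosin genes give by alternative promoters and splicing were not told apart.

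**Figure D2:**
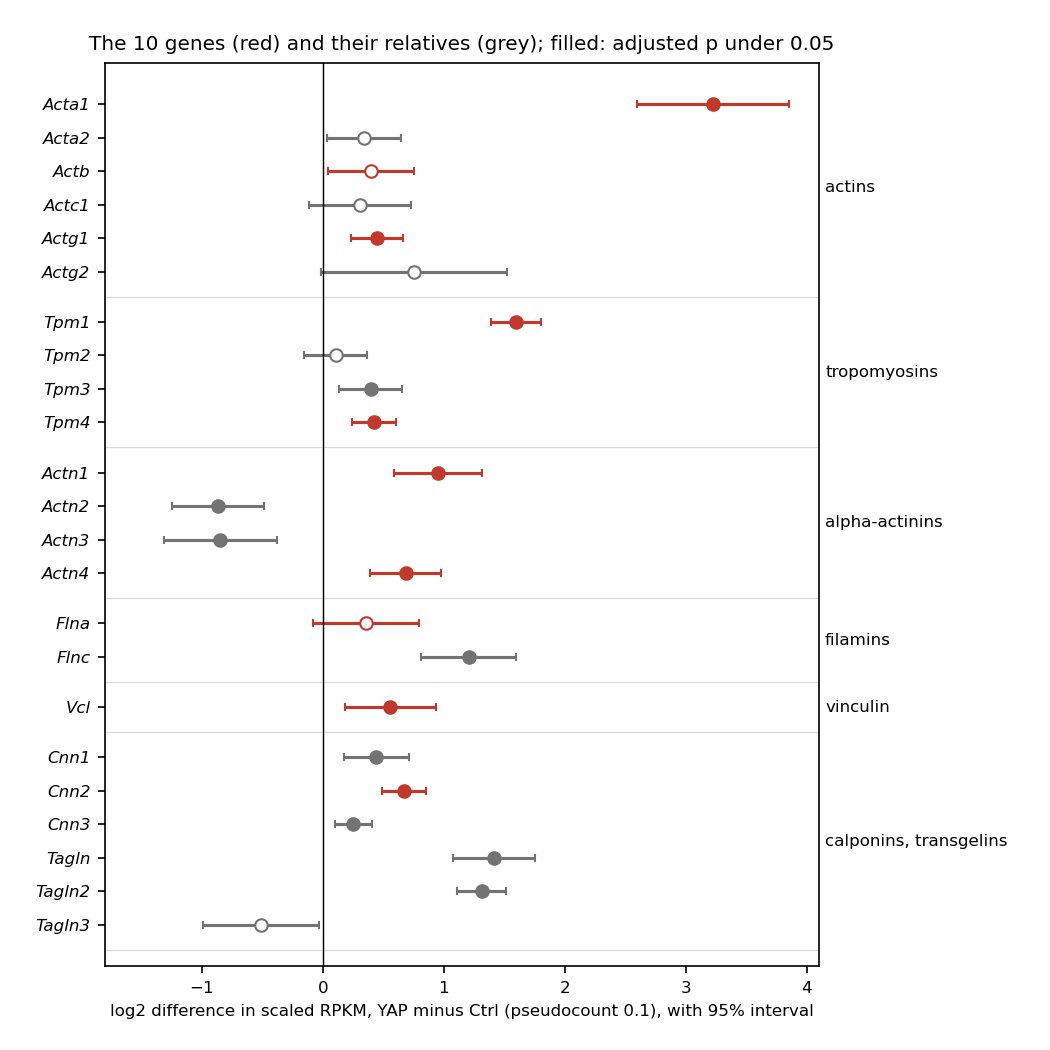
Log2 difference in scaled RPKM, YAP minus Ctrl, with its 95% interval (horizontal axis) for the 10 genes in red and for other genes of their families in grey, filled where the adjusted p was under 0.05. Within the alpha-actinins, Actn1 and Actn4 are right of 0 and Actn2 and Actn3 left of 0.

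Actn1, alpha-actinin 1, on chr12:80167542-80260420, measured 56.3, 58.6, 46.1 and 56.2 scaled RPKM in YAP males 1 and 2 and YAP females 1 and 2, against 21.2, 30.3, 26.4 and 35.6 in the Ctrl libraries. All YAP libraries were above all Ctrl libraries, and the fold was 1.94 (95% interval 1.51 to 2.49, limma adjusted p = 0.00264). Actn4, alpha-actinin 4, on chr7:28893248-28962351 and a component of podocyte foot processes, was the more abundant of these 2. It measured 197, 223, 176 and 174 in the YAP libraries, against 99.4, 129.5, 112 and 138 in the Ctrl libraries, and rose 1.61-fold (95% interval 1.31 to 1.97, limma adjusted p = 0.00478). Both genes passed within each batch alone, at log2 differences of 1.10 and 0.80 for Actn1 and 0.82 and 0.56 for Actn4.

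The muscle alpha-actinins were rare transcripts and fell. Actn2, of cardiac and skeletal Z discs, averaged 0.052 ± 0.0372 scaled RPKM in YAP and 0.173 ± 0.0528 in Ctrl kidneys (SD, n = 4 each), from 38 and 114 reads in all, with a log2 difference of −0.86 and a limma adjusted p of 0.00557. The male YAP replicate 2 library had no reads of Actn2, and the size depended on the pseudocount, at −0.156 with a pseudocount of 1 and −1.93 with 0.01, and at −1.805 by voom. Actn3, of fast skeletal fibres, averaged 0.426 in YAP and 0.848 in Ctrl kidneys, with a log2 difference of −0.85, or −0.37 with a pseudocount of 1, and a limma adjusted p of 0.0158. The Actn3 groups overlapped, since male Ctrl replicate 1, at 0.505, was below female YAP replicate 2, at 0.626. The Actn3 call was lost within the replicate 2 libraries alone, at 0.0546, and without the male or the female YAP replicate 1 library, at 0.0534 and 0.05001. So 2 of the 4 alpha-actinin genes rose and 2 fell, and those that rose were the abundant non-muscle pair.

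Flna, filamin A, on chrX:74223461-74249854, was the gene of the set least separated by genotype. It measured 70.5, 86.9, 63.2 and 77.5 scaled RPKM in the YAP libraries, against 41.9, 63.4, 53.1 and 79.6 in the Ctrl libraries. The highest Ctrl library, female replicate 2, was above 3 of the 4 YAP libraries, and the male Ctrl replicate 2 library was above the lowest YAP library. The fold was 1.28 with a 95% interval of 0.943 to 1.73, and the limma adjusted p was 0.224. The log2 difference of 0.35 was 0.50 within the replicate 1 libraries and 0.21 within the replicate 2 libraries, and it became 0.18 without male Ctrl replicate 1 and 0.52 without female Ctrl replicate 2. Flnc, the muscle filamin, did pass and measured 4.77, 5.55, 4.14 and 5.01 in the YAP libraries, against 1.56, 2.14, 1.88 and 2.77 in the Ctrl libraries, a 2.31-fold rise (limma adjusted p = 0.00117).

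Vcl, vinculin, on chr14:20929383-21033676, measured 25.1, 30.4, 24.2 and 23.8 scaled RPKM in the YAP libraries, against 14.1, 18.2, 15.3 and 23.6 in the Ctrl libraries. The groups were apart only narrowly, since the highest Ctrl library, female replicate 2, was just below the lowest YAP library. The fold was 1.47 (95% interval 1.14 to 1.91), and its limma adjusted p of 0.0364 was the highest among the 8 genes that rose. The call was lost on leaving out any library except female Ctrl replicate 2, with limma adjusted p between 0.0591 and 0.106, and within the replicate 2 libraries, at 0.21, where the log2 difference of 0.56 became 0.37. It was also lost with no filter on low values, at 0.0682, and was held within the replicate 1 libraries, at 0.00572 and a log2 difference of 0.74.

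Cnn2, calponin 2, on chr10:79988600-79995400, measured 249, 255, 219.5 and 246 scaled RPKM in the YAP libraries, against 146, 152, 151 and 159.5 in the Ctrl libraries. The spread within each genotype was small beside the gap between them, and the fold of 1.59 (95% interval 1.40 to 1.81) had a limma adjusted p of 0.000415. Log2 differences of 0.66 and 0.69 within the replicate 1 and replicate 2 libraries both passed. Tagln2, a close relative expressed in many non-muscle cells, measured 395, 348, 315 and 358 in the YAP libraries, against 143, 136, 142 and 148 in the Ctrl libraries, a 2.48-fold rise (limma adjusted p = 2.1e-05). Tagln, transgelin of smooth muscle, averaged 431 ± 41.5 in YAP and 165 ± 41.4 in Ctrl kidneys (SD, n = 4 each), a 2.66-fold rise. Cnn3 averaged 210.1 ± 5.94 in YAP and 176 ± 2.49 in Ctrl kidneys and rose 1.19-fold, with a limma adjusted p of 0.0247 that was lost within either batch alone. The log2 difference of Cnn3 was 0.251 pooled, and 0.255 and 0.248 within the replicate 1 and replicate 2 libraries. Cnn1, of smooth muscle, averaged 6.54 in YAP and 4.83 in Ctrl kidneys with a limma adjusted p of 0.0248, lost within the replicate 1 libraries at 0.24. Both calls were also lost without female Ctrl replicate 1, female YAP replicate 2, male Ctrl replicate 2 or male YAP replicate 2, and that of Cnn3 without either YAP replicate 1 library. Tagln3, the neuronal form, was lower in YAP kidneys on average, at a log2 difference of −0.51, and did not pass (limma adjusted p = 0.115). So 5 of the 6 genes of this family rose, beside 13.2% of all tested genes.

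Within pairs of libraries of the same sex and replicate number, 9 of the 10 genes were higher in YAP in 4 of 4 pairs, as were 23.4% of the tested genes, and Flna in 3 of 4. Flna differed by −0.04 on the log2 scale in the female replicate 2 pair, and Vcl by 0.01 in that pair. Tpm1 was the steadiest in relation to its size, at 1.40 and 1.66 in the male pairs and 1.55 and 1.76 in the female pairs. The Actb pairs ranged further than its pooled difference, at 0.85 and 0.48 in the male pairs and 0.04 and 0.23 in the female pairs. The replicate number as such did not reach the threshold in any of the 10 genes when it was a term of the fit, and 43 of all tested genes passed for it.

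**Figure D3:**
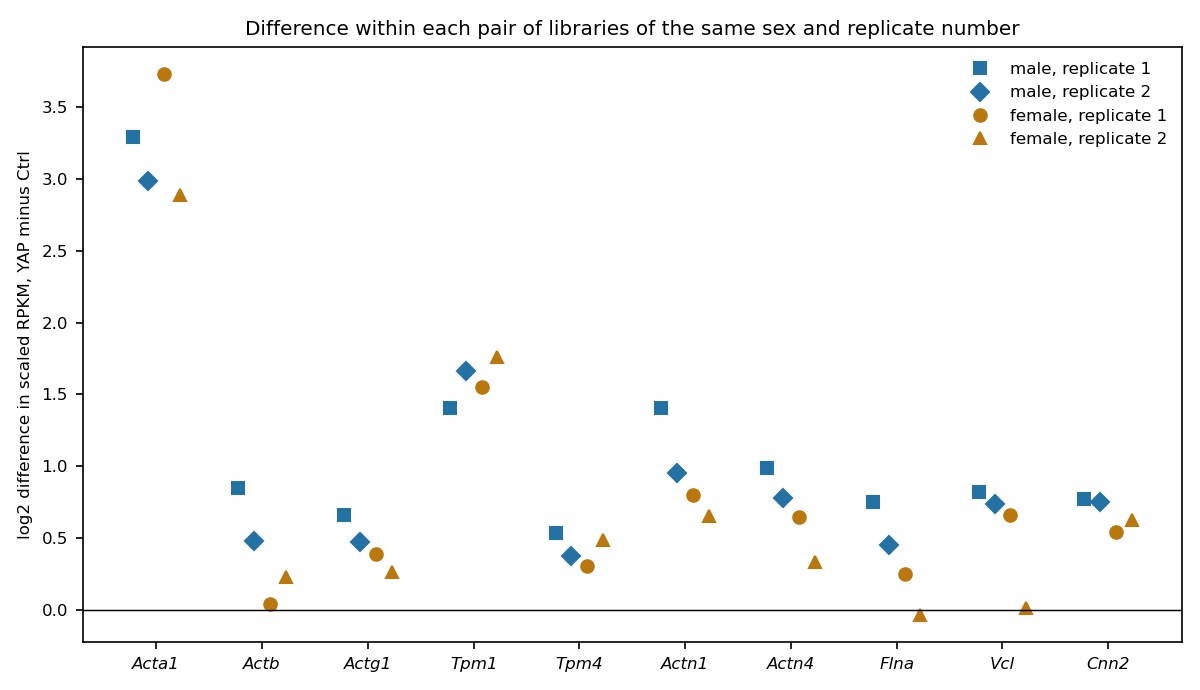
Log2 difference in scaled RPKM, YAP minus Ctrl (vertical axis), for each of the 10 genes in the 4 pairs of libraries of the same sex and replicate number. All points but 1 are above 0, the exception being Flna in the female replicate 2 pair at −0.04.

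The genotype difference was larger in males in 8 of the 10 genes, Acta1 and Tpm1 being the exceptions. The share of all tested genes with a larger difference in males was not counted. The 10 genes were read in the same libraries, so they are not independent of each other. Within males 7 of the 10 rose (background 7.85% of tested genes), and within females 3, Acta1, Tpm1 and Cnn2 (background 6.01%). For Actn1 the log2 difference was 1.18 in males and 0.73 in females, and for Actb 0.66 in males and 0.13 in females. The test of the difference between sexes passed for none of the 10 genes, with limma adjusted p of 0.948 to 0.974. It passed for 0 of all tested genes in limma (554 had an unadjusted p under 0.05, none of them among the 10) for 0 by voom, and for 1 gene, not among the 10, with a replicate block. The interval of the male minus female difference ran from −0.24 to 1.13 for Actn1, from −0.09 to 1.15 for Actb and from −0.57 to 0.32 for Tpm1, so differences between the sexes as large as the genotype difference itself lay inside the first 2 of these intervals.

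Of the 10 genes, 6 rose within the replicate 1 libraries alone (background 8.80%) and 5 within the replicate 2 libraries alone (background 8.82%). The median log2 difference of the 10 genes was 0.70 in the replicate 1 libraries and 0.49 in the replicate 2 libraries. Acta1, Tpm1, Actn1, Actn4 and Cnn2 passed in both batches, and Vcl in the first only. The difference between batches was not tested.

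Of the 7 genes measured for SRF and its cofactors, 2 rose (28.6%, against 13.2% of all tested genes) and none fell. Their median difference was 0.09. The activity of these proteins was not measured, and RNA levels do not show it. Srf measured 18.9, 18.7, 17.8 and 16.9 scaled RPKM in the YAP libraries, against 13.5, 13.8, 15.5 and 15.3 in the Ctrl libraries. The groups did not overlap and the fold was 1.24 (limma adjusted p = 0.0166). The call was lost within either batch alone and without male Ctrl replicate 2, male YAP replicate 1 or male YAP replicate 2. The log2 difference of Srf was 0.31 pooled, and 0.34 and 0.29 within the replicate 1 and replicate 2 libraries, fits that rest on fewer libraries. Mkl1, which encodes MRTF-A, averaged 7.82 ± 0.544 in YAP and 6.17 ± 0.849 in Ctrl kidneys (SD, n = 4 each), and its limma adjusted p of 0.0486 was lost in 11 of 19 other settings, among them each that left out 1 library except female Ctrl replicate 2 and female YAP replicate 2. Mkl2, which encodes MRTF-B, had a log2 difference of 0.09 and Myocd, myocardin, one of 0.30. Neither passed, with limma adjusted p of 0.713 and 0.14. The ternary complex factors Elk1, Elk3 and Elk4, the alternative partners of SRF, had log2 differences of −0.03, −0.01 and 0.03 and did not pass.

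Of 23 other genes reported as targets of SRF and MRTF, 15 rose and none fell, with a median difference of 0.57. That share is 65.2%, against 13.2% of all tested genes. The lists overlap: Srf, Tagln and Cnn1 among these 15 are also counted above, Zyx again among focal adhesion genes, and Tagln and Cnn1 again among smooth muscle markers. The list of 23 was drawn up with results of these data known and includes genes that YAP and TEAD also bind. Ankrd1, a nuclear ankyrin-repeat protein and target of both pathways, averaged 50.4 in YAP and 0.522 in Ctrl kidneys, an 81.3-fold rise (limma adjusted p = 2.12e-07). Its log2 difference of 6.34 became 5.06 with a pseudocount of 1. Fhl1, a LIM-domain protein, averaged 52.5 in YAP and 26.1 in Ctrl kidneys (limma adjusted p = 2.35e-05). Of 9 immediate early genes that SRF controls with ternary complex factors, 7 rose (77.8%, against the same 13.2%) and none fell, with a median of 0.94. Junb, an AP-1 subunit, averaged 59.8 in YAP and 10.6 in Ctrl kidneys, and Fos 5.85 in YAP and 1.26 in Ctrl kidneys.

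The wider actin machinery changed in part. Among 19 focal adhesion genes other than Vcl, 6 rose and none fell, with a median difference of 0.18. They included Zyx, zyxin of focal adhesions and stress fibres, at 45.5 in YAP and 25.9 in Ctrl kidneys, Bcar1, a docking protein of integrin signalling, at 61.7 in YAP and 39.8 in Ctrl kidneys, and Vasp and Ilk, each 1.35-fold higher. The calls of Vasp and Ilk were lost within the replicate 1 libraries alone, at limma adjusted p of 0.0504 and 0.0968. Among 14 genes of non-muscle myosin and its regulators 5 rose and none fell, with a median of 0.27. Myl12a, a regulatory light chain, averaged 513 in YAP and 249 in Ctrl kidneys. Rhob, a small GTPase, averaged 133 in YAP and 67.6 in Ctrl kidneys, and Rock2, a kinase that raises myosin activity, rose 1.86-fold. Myh14, the heavy chain of non-muscle myosin IIC, rose 1.85-fold.

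Among 19 genes of actin nucleation and elongation 7 rose and none fell, with a median of 0.21. Actr2, Actr3, Arpc1b, Arpc2, Arpc4 and Arpc5 encode subunits of the Arp2/3 complex, which starts branched filaments, and Arpc1b rose 1.61-fold. The calls of Actr3 and Arpc5 were lost within the replicate 1 libraries alone, at limma adjusted p of 0.112 and 0.0649. Diaph3, a formin that elongates unbranched filaments, averaged 7.30 in YAP and 2.63 in Ctrl kidneys, a 2.70-fold rise. Among 21 genes of filament turnover and monomer binding 7 rose and 2 fell, with a median of 0.15. Those that rose included Capg, a capping protein (1.91-fold), Limk2, a kinase that inhibits cofilin (1.65-fold), and Dstn, which severs filaments (1.57-fold), whereas Pfn2, a profilin, and Vil1, villin of the brush border, fell. Among 14 bundling proteins and membrane linkers 7 rose and 1 fell, with a median of 0.22. Msn, moesin, rose 1.88-fold and Anln, anillin of the cleavage furrow, 2.05-fold, while Pls1, plastin 1 of microvilli, fell. Lcp1, plastin of leukocytes, rose 1.86-fold. Against the 13.2% of tested genes that rose, the shares that rose in these 5 lists ran from 31.6% to 50% of each list.

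**Figure D4:**
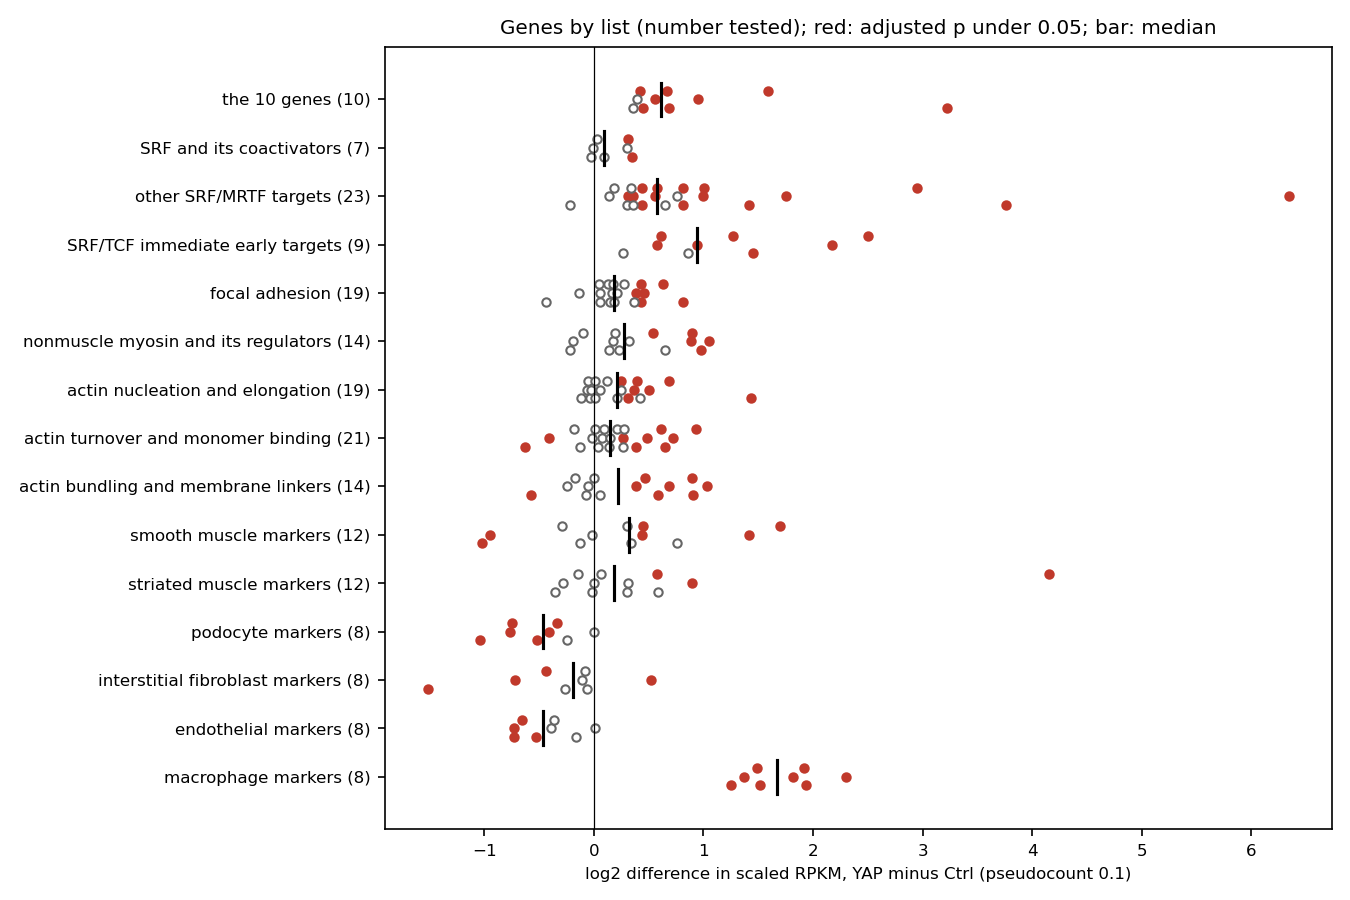
Log2 difference in scaled RPKM, YAP minus Ctrl (horizontal axis), of each gene in the 10-gene set, in the SRF and cytoskeleton lists and in lists of cell-type markers (rows), with red points for adjusted p under 0.05 and a bar for the median. All 8 macrophage markers are above 1, and most podocyte, fibroblast and endothelial markers are below 0.

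Actin, its crosslinkers and tropomyosin are made by many cell types, so marker lists for the other cells of the kidney were read beside the 10 genes. Their part in the result was not tested. The counts below stand beside 13.2% of all tested genes that rose and 13.0% that fell. All 8 macrophage markers rose, with a median of 1.67 and a summed level of 272 to 329.9 scaled RPKM in the YAP libraries, against 66.1 to 84.1 in the Ctrl libraries. Csf1r, the receptor of the macrophage growth factor, averaged 15.3 in YAP and 5.86 in Ctrl kidneys. Of the smooth muscle markers 4 of 12 rose, Tagln, Cnn1, Smtn and Lmod1, and 2 fell, among them the defining heavy chain Myh11, which averaged 1.61 in YAP and 3.40 in Ctrl kidneys (limma adjusted p = 0.00228). Their summed level was 597 to 808 in the YAP libraries and 359 to 428 in the Ctrl libraries, and Tagln and Acta2 supply most of it. Of the podocyte markers 6 of 8 fell and none rose, with sums of 117 to 143 in YAP and 165 to 198 in Ctrl libraries, including Nphs1, nephrin, at 3.71 in YAP and 7.71 in Ctrl kidneys. Of the fibroblast markers 3 of 8 fell, Col3a1, Dcn and Lum, and 1 rose, Postn, with sums of 291 to 401 in YAP and 385 to 495 in Ctrl libraries. Of 19 other settings, 8 lost the call of Col3a1, 6 that of Postn, 5 that of Lum and 1 that of Dcn, mostly on leaving out single libraries or within 1 batch. Of the endothelial markers 4 of 8 fell and none rose, with sums of 201 to 234 in YAP and 289 to 334 in Ctrl libraries. Of the kidney epithelium markers 6 of 8 fell and none rose, with sums of 386 to 611 in YAP and 1008 to 1113 in Ctrl libraries. None of the markers in these 6 lists was at 0 in all libraries.

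Acta1 is the actin of skeletal muscle fibres, and 20 striated muscle genes were read beside it. Their summed level was 12.0 to 15.02 scaled RPKM in the YAP libraries and 10.7 to 15.2 in the Ctrl libraries. Of the 12 with enough reads to test 3 rose, Tnnc2, Tnni2 and Mb (25%, against 13.2% of all tested genes), and none fell. The limma adjusted p of 0.0176 for Mb was lost within each batch alone, at 0.101 and 0.211, and without male YAP replicate 1 or female YAP replicate 2. Ckm, muscle creatine kinase, had 17 reads in all YAP libraries and 21 in all Ctrl libraries. Myh4 had 0 reads in YAP and 1 in Ctrl libraries, Myh1 3 in YAP and 0 in Ctrl libraries, and Myh2 0 in both. Mylpf, the fast skeletal light chain, averaged 2.35 in YAP and 2.41 in Ctrl kidneys. Tnnc2, fast troponin C, followed Acta1: it measured 3.22, 2.26, 1.55 and 3.46 scaled RPKM in the YAP libraries, against 0.0347, 0, 0.112 and 0.0619 in the Ctrl libraries, from 378 and 9 reads in all (limma adjusted p = 2.83e-05). The part of striated muscle RNA in the Acta1 result was not tested.

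Across the 8 libraries, the mean of the 10 genes' standardised log2 values was 0.96, 1.03, 0.47 and 0.79 in the YAP libraries and −1.29, −0.73, −0.91 and −0.32 in the Ctrl libraries. Of the 10, Actn1 followed this mean most closely, with a Pearson r of 0.994, and Flna least, with 0.783. Each of the 10 is part of the mean, so its r rests in part on its own values. Among 13563 other genes with a mean of at least 1 read per 1000000, the 5 with the highest r over the 8 libraries were Tmem43 (0.998), Ptrf (0.997), Laptm5 (0.996), Fam129b (0.996) and Plekha2 (0.996). Ptrf encodes cavin 1, a coat protein of caveolae, and averaged 33.0 scaled RPKM in YAP and 19.3 in Ctrl kidneys. Laptm5, a lysosomal protein of blood cells, averaged 12.3 in YAP and 4.49 in Ctrl kidneys. An r above 0.9 was reached by 1092 of these genes, and the libraries share the genotype split and the depth batches, so the values describe likeness in these 8 libraries.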

How the data were processed

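Poly(A) RNA-seq of 8 kidney libraries was read, 4 YAP and 4 Ctrl. The authors deposited 1 table of RPKM per gene symbol with gene lengths, and STAR, featureCounts and mm10 are named in the submitters' processing notes. The annotation release, the strand setting and the rule for multi-mapping reads are not stated in the sources. RPKM multiplied by gene length came out whole to within 0.01 for all 179720 nonzero values, which gave reads per gene and library totals. Genes with at least 0.2 reads per 1000000 in 2 libraries and 15 reads in all were tested, 18156 of 35976. RPKM was divided by trimmed-mean-of-M-values factors (0.975 to 1.02), and log2(scaled RPKM + 0.1) was fitted in limma 3.58.1 (R 4.3.3) with genotype and sex, empirical Bayes with trend and robust options, and Benjamini-Hochberg adjustment over all tested genes at 0.05. Such folds understate changes of genes near 0.

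The plan had named a count model. As the unit was RPKM, limma took its place and voom on the recovered reads was added after the unit was seen. Only the main model, limma with genotype and sex, was run on simulated data, in which the spread was a set value. Of 200 changed genes 177 were recovered with the right sign, and 10 unchanged genes passed. The other models were not run on simulated data. The 2 libraries of each group were not 1 library deposited again: their reads differed beyond sampling, with a chi-square of 22.6 to 51.2 for each degree of freedom, which does not tell separate animals from technical repeats. The 10 genes and all lists were chosen with earlier results of these data known. Named genes are the 10, the genes of their families (1 is not reported here), SRF and its coactivators, up to 4 called genes with the lowest p of each other list, and the 5 genes most like the mean of the 10. Genes named outside this rule were chosen after their values were seen. Gene positions and promoters are from RefSeq GRCm38.p6, the assembly called mm10. The alternatives were pseudocounts of 0.01 and 1, no filter, other scalings, genotype alone, each batch alone, a replicate block, voom, and leaving out each library.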

Additional observations from a re-analysis of the deposited data

How the results depend on the processing

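Each of the 10 genes kept its direction under all 19 alternatives: of 190 values 173 stayed on the same side of the threshold, 13 no longer passed and 4 newly passed. The number that rose was 8, with 5 in the replicate 2 libraries alone, and 7 to 9 when 1 library was left out. Over all tested genes 2390 rose and 2355 fell, with 1602 rising and 1510 falling in the replicate 2 libraries alone, and 1793 to 2465 rising and 1791 to 2381 falling when 1 library was left out, and these fits rest on fewer libraries. With a replicate block in limma, 8 of the 10 rose, and 2751 genes rose and 2722 fell. Actb and Flna then stood just short of the threshold, at limma adjusted p of 0.0598 and 0.0562. With the replicate block in voom all 10 rose, Actb at 0.0346 and Flna at 0.0399, as did 2895 of all tested genes (15.9%), while voom without it gave 8 and 2500. Replicate number was not a term of the main fit. Deviations of same-numbered libraries correlated at −0.003 to 0.379 over the 6 pairs of groups, a range that does not settle whether a block is needed. The Acta1 share of summed actin, higher by 0.180 percentage points in YAP, was higher by 0.171 to 0.186 when 1 library was left out, where the smallest exact permutation p is 0.0571, and by 0.171 and 0.189 in the replicate 1 and replicate 2 libraries alone, where it is 0.333. The differences in 3 other shares changed sign: Actb from −0.420 to 0.738 without female YAP replicate 1 and 1.003 without female Ctrl replicate 2 (−1.797 to 1.003 over single libraries left out), Actg1 from 0.877 to −0.845 and −0.406 without those libraries (−0.845 to 2.36), and Actc1 from 0.000893 to −0.00142 without female YAP replicate 2, −0.000427 without female Ctrl replicate 1 and −0.00172 in replicate 1 alone (−0.00142 to 0.00288 over single libraries left out). Among 1520 values of other named genes 1416 stayed on the same side of the threshold, 89 no longer passed, 4 newly passed and 11 changed sign, all in SRF cofactors that were not called. Mkl2 was at −0.057 in replicate 2 alone and −0.0085 to 0.203 when 1 library was left out, Elk1 at 0.012 and −0.053 to 0.0074, Elk3 at 0.0084 in replicate 1 alone and −0.033 to 0.0087, and Elk4 at −0.135 in replicate 2 alone and −0.063 to 0.126. The cause was not tested. Depth limits Acta1, Actn2 and the striated muscle genes, which rest on few reads, Acta1 on 12 to 31 in each Ctrl library.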
